A study of Mus musculus with 2 samples.

Results

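DEAD and DEAH box proteins are ATP-driven enzymes that open RNA duplexes or pull proteins off RNA, and they take their names from a short motif in the ATPase core. Ddx proteins mostly act locally on short duplexes, Dhx proteins mostly move along single-stranded RNA, and between them they serve splicing, ribosome assembly, mRNA export, translation and decay. N6-methyladenosine (m6A) is the commonest internal modification of mRNA. METTL3, the catalytic subunit of the methyltransferase complex, writes it at RRACH sequences (R is A or G, H is A, C or T), most densely near stop codons and in long exons. The comparison asked which adenosines of the helicases' own mRNAs were called as m6A, and which of these calls were also made in cells without METTL3.

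The members were all protein-coding genes outside chromosome Y whose symbol starts with Ddx or Dhx followed by a number, which gave 52 genes of 21951 in the mouse annotation of build GRCm38. The study sequenced poly(A) RNA of mouse 129 embryonic stem cells by Oxford Nanopore direct RNA sequencing (ONT DRS), which reads native RNA without copying it. There were 2 libraries, 1 of wild-type (WT) cells and 1 of Mettl3 knockout (KO) cells, in which resistance genes for puromycin and hygromycin replaced exons 5 to 7 of Mettl3 on both alleles. The processed data used here are 17 lists of called positions from 10 tools. Tombo and MINES, which builds on it, Nanom6A and m6Anet read the current, ELIGOS and Epinano read base-calling errors, and these 6 single-mode tools each have a WT and a KO list. The compare-mode tools Nanocompore, DiffErr and DRUMMER each have 1 list of positions that differed between WT and KO. xPore is also a compare-mode tool, which models the current of both samples together, but it has a WT and a KO list and is counted with the tools that have both, so that these 2 lists of xPore were not made independently of each other.

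A listing below means 1 position in the list of 1 tool and 1 library. The lists hold positions without read depth, score or methylation rate, so a position missing from a list may be unmethylated or too thinly covered, and more RNA and more methylation cannot be told apart. With 1 library per condition no difference between WT and KO has a replicate check or a test. All intervals are 95% intervals, cover counting error only, and treat listings as independent although tools share reads. Of 10 embryonic stem cell markers 9 had listed positions in both libraries, and the exception was Lin28a. Of 5 feeder fibroblast markers 1 had positions in WT and 2 in KO, and neural markers had none. Of 3 endoderm markers Sox17 had 12 positions in WT and 0 in KO, while Gata4 and Gata6 had none in either library. Mettl3 itself had 13 positions in WT and 5 in KO, and within the replaced exons it had 2 in WT and 0 in KO.

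Of the 52 helicase genes 47 had at least 1 listed position (90.4%, against 46.7% of all protein-coding genes). Ddx4, Ddx58, Ddx60, Dhx34 and Dhx58 had none. The 47 genes carried 1140 positions, of which 962 were in a WT list, 790 in a KO list and 22 in a comparison list, and all 22 were among the 962. At 1135 of the 1140 positions the listed base was the centre of an RRACH 5-mer. Single-tool calls were the majority, as 616 of the 962 WT positions came from 1 tool (64%, against 65.2% over all protein-coding genes).

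At 11 positions in 10 genes at least 7 of the 10 tools made a call in WT or in the comparison, which was 1.14% of the members' positions against 1.17% over all protein-coding genes. Their sequences are shown because these are the adenosines on which most methods met. Each is a 21-base window of the mouse reference from 5′ to 3′ on the strand of the gene, with the called RRACH 5-mer in capitals and the called A in its middle. Distances are in spliced bases from the first base of the stop codon, positive downstream.
Ddx20 +127, chr3:105678415-105678435, minus strand: ttctactgGGACAcaattatt
Ddx19a +97, chr8:110975924-110975944, minus strand: cccctcagAGACCacgggctg
Ddx54 +57, chr5:120627337-120627357, plus strand: gacgtcagGGACTatgtccat
Ddx47 +138, chr6:135023536-135023556, plus strand: ttgacacaGGACTggccgctc
Dhx8 +332, chr11:101767179-101767199, plus strand: aaggcaagGGACAtgagtaac
Ddx54 +153, chr5:120627433-120627453, plus strand: tttgactgGGACAttgggtga
Ddx52 +121, chr11:83961916-83961936, plus strand: atatgagaGGACAgaatggtt
Ddx56 +101, chr11:6259072-6259092, minus strand: cagtgtgtGGACAgactgtac
Ddx18 +24, chr1:121553964-121553984, minus strand: ttcagcctGGACTgactttgc
Ddx24 -1697, chr12:103419320-103419340, minus strand: ccttgcaaGGACAgaactgaa
Ddx5 -150, chr11:106781992-106782012, minus strand: tccaacagGGACTtaccagaa
The 5-mer was GGACA at 6 of these positions, GGACT at 4 and AGACC at 1. The 3′ UTR held 9 of the 11 and the last exon 10, and the coding sites were those of Ddx24 and Ddx5. Over all protein-coding genes these shares were counted for positions of 5 or more tools. There the 3′ UTR held 67.8% and the last exon 87.7%, with GGACT at 44.8% and GGACA at 23.5%. m6Anet listed all 11 in WT, while Tombo, Nanom6A and ELIGOS listed 10 each.

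Of these 11 positions 2 had no KO call (18.2%, against 24.4% of the positions with as many tools over all protein-coding genes). At the other 9 the KO calls came from Tombo at 7 positions, Nanom6A at 5, m6Anet at 3 and MINES at 2. ELIGOS, Epinano and xPore listed none of the 11 in KO, and of all 1140 member positions they listed only 8, 64 and 17 in KO. The exceptions with no KO call from any tool were Ddx19a +97 and Dhx8 +332. The widest support was at Ddx20 +127, in the 3′ UTR of the gene for a component of the SMN complex that assembles spliceosomal snRNPs. All 7 tools listed it in WT, Tombo, Nanom6A and m6Anet listed it in KO, and DiffErr and DRUMMER listed it as different between the libraries.

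**Figure D1:**
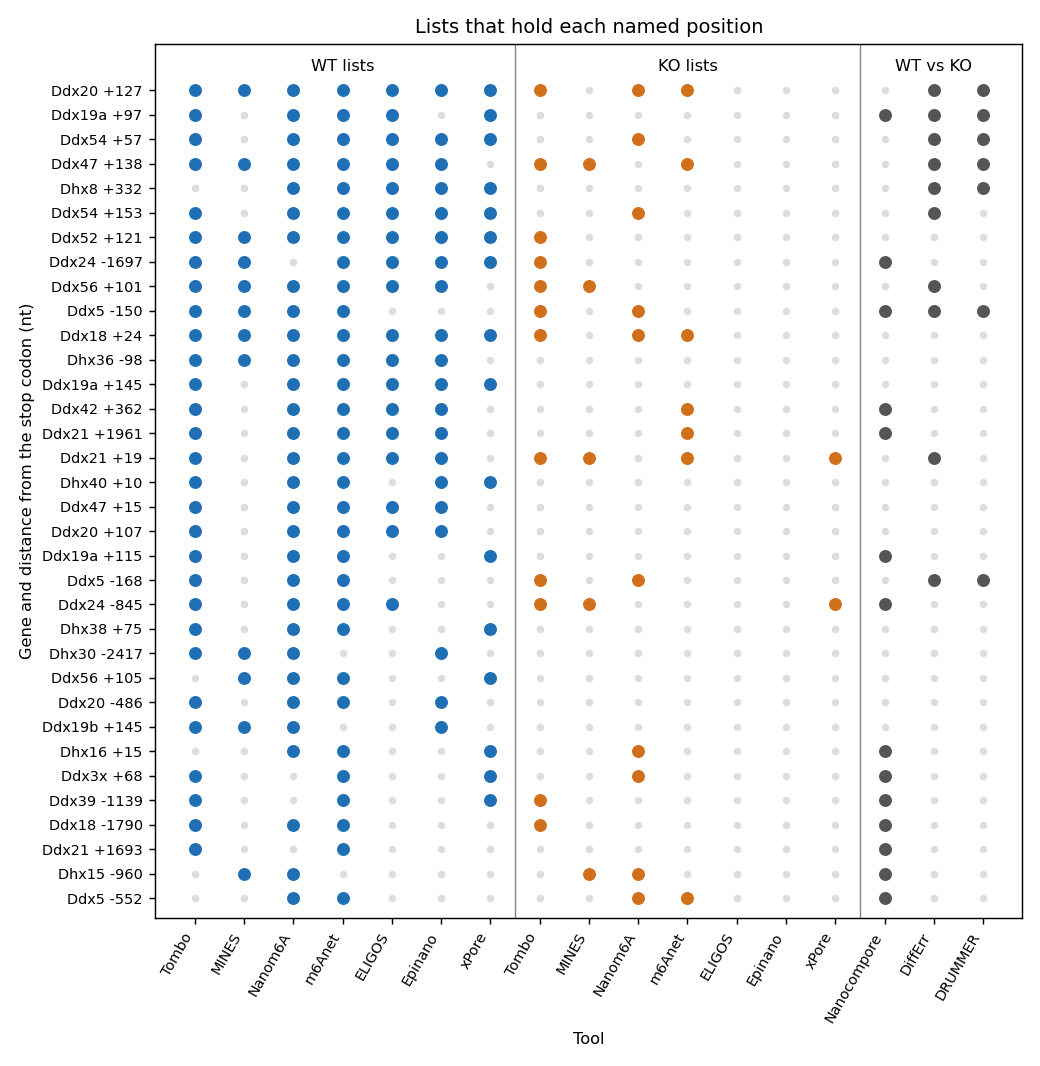
Helicase positions that were in a comparison list, or called by at least 7 of 10 tools, or called by at least 4 tools in WT and none in KO. Each row is a position (gene and distance in nt from the stop codon), each column a list, and a filled point means that the list holds the position. No position drawn has a KO call from ELIGOS or Epinano, whereas Tombo calls recur in KO at many of them.

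The comparison lists held positions in 15 helicase genes, which was 33.3% of the 45 genes with a WT or comparison position, against 16.9% of all such protein-coding genes. Of all members, listed or not, that was 28.8%, against 7.15%. Genes with more listed positions have more chances to be counted here. Per position the share was 2.29%, against 2.49% over all protein-coding genes. Nanocompore listed 14 positions, DiffErr 10 and DRUMMER 7, and every DRUMMER position was also in DiffErr (100%, against 88.2% over all protein-coding genes). In at least 2 lists there were 7 positions (0.728%, against 1.13%), and in all 3 lists there were 2 (0.208%, against 0.407%).

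The 2 positions in all 3 comparison lists were Ddx5 -150 and Ddx19a +97. Ddx5 encodes a splicing regulator and transcription coactivator, and its site lies in the coding part of exon 13 of 13. In WT it was listed by Tombo, MINES, Nanom6A and m6Anet, and in KO by Tombo and Nanom6A. Another site in the same exon, Ddx5 -168 (chr11:106782010-106782030, cagttttaGGACTggtaatcc), was in DiffErr and DRUMMER, with 3 WT tools and 2 KO tools. A further one, Ddx5 -552 in exon 12, was in Nanocompore alone, with 2 WT and 2 KO tools. Ddx19a encodes an export factor that strips proteins from mRNA at the nuclear pore. Its site lies in the 3′ UTR, with 5 WT tools and no KO tool.

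The other comparison positions are given by functional group, and larger groups have more chances to hold one. In the nucleolar helicase genes, whose products act in ribosome assembly, 10 positions in 6 genes were listed: 3 in Ddx21 (+19, +1693 and +1961), 2 each in Ddx24 (-845 and -1697) and Ddx54 (+57 and +153), and 1 each in Ddx18 (-1790), Ddx47 (+138) and Ddx56 (+101). In the splicing helicase genes, beside the 3 in Ddx5, there was 1 each in Dhx8 (+332), Dhx15 (-960), Dhx16 (+15) and Ddx42 (+362). In the genes for export, translation and decay, beside Ddx19a +97 and +115, there was 1 each in Ddx3x (+68), the X-linked gene of a translation initiation helicase, and Ddx39 (-1139), an export helicase. Ddx20 +127 completed the 22.

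Nanocompore reads the current signal, and 12 of its 14 positions (85.7%, against 60.1% over all protein-coding genes) were in neither DiffErr nor DRUMMER, which read base-calling errors. Of the 10 positions of DiffErr or DRUMMER, 9 lay within 200 nt of a stop codon (90%, interval 59.6 to 98.2, against 53.6% over all protein-coding genes) and 10 in the last exon (100%, against 85.1%). Of the 12 positions of Nanocompore alone, 3 lay within 200 nt of a stop codon (25%, 8.89 to 53.2, against 48.2%) and 6 in the last exon (50%, against 79.0%). What sets these positions apart was not tested.

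Summed over the 7 tools with both lists, the members had 1528 listings in WT and 1011 in KO, a KO to WT ratio of 0.662 (interval 0.611 to 0.717), where all protein-coding genes had 0.684 (0.679 to 0.688). Of the members' WT listings 47.6% (45.1 to 50.2) were repeated in KO by the same tool at the same base, against 44.5% over all protein-coding genes. The tools differed far more from each other than the helicases did from other genes. Tombo listed 596 positions in WT and 498 in KO, and repeated 64.8% (60.8 to 68.5) of the former. Nanom6A listed 276 and 233, and repeated 65.6% (59.8 to 70.9). In the middle were MINES with 105 and 66, m6Anet with 210 and 125, and xPore with 43 and 17. The error-based tools had the lowest ratios. ELIGOS listed 51 positions in WT and 8 in KO, a ratio of 0.157 (0.0643 to 0.333), against 0.254 over all genes. Epinano listed 247 and 64, a ratio of 0.259 (0.194 to 0.342), against 0.338 over all genes. ELIGOS repeated 7.84% (3.09 to 18.5) and Epinano 13.4% (9.67 to 18.2) of their WT positions.

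**Figure D2:**
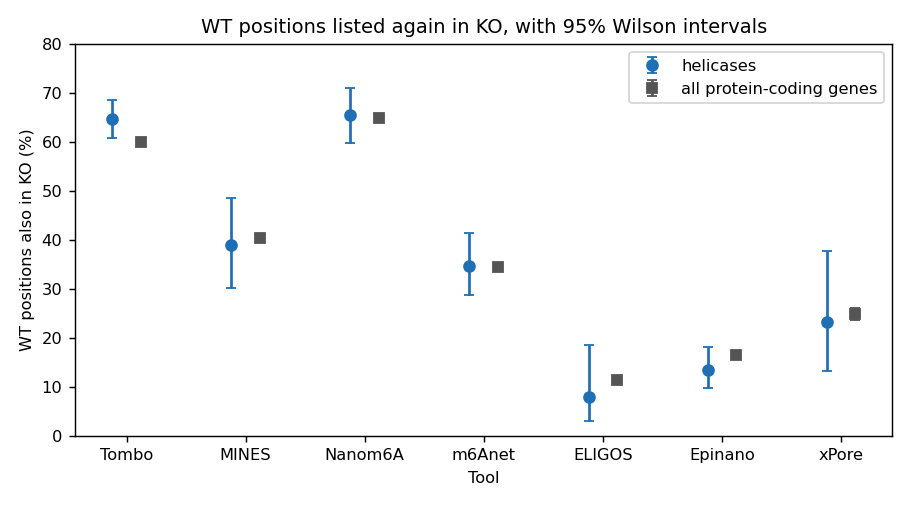
Share of each tool's WT positions that the same tool also listed in KO, in percent, for the helicases (circles) and all protein-coding genes (squares), with 95% Wilson intervals. Nanom6A and Tombo repeat 65.6% and 64.8% of the helicase positions and ELIGOS 7.84%, and for 6 of the 7 tools the helicase interval includes the value over all genes; the exception is Tombo.

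Among the 44 helicase genes with at least 10 WT listings, 11 had at most 1 KO listing for every 2 WT listings (25%, against 31.6% of all protein-coding genes). Without the Tombo lists the count was 21 of the 34 genes that then had at least 10 WT listings (61.8%, against 54.5%). None had at least 2 KO listings for every WT listing (0%, against 0.32%). The KO count was below the WT count in 38 genes, equal in 2 and above it in 4, and the median ratio was 0.601, against 0.64 over all protein-coding genes. For 17 of the 44 the interval of the ratio lay below 1 (38.6%, against 30.7% of all protein-coding genes), and for none did it lie above 1 (0%, against 0.306%).

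**Figure D3:**
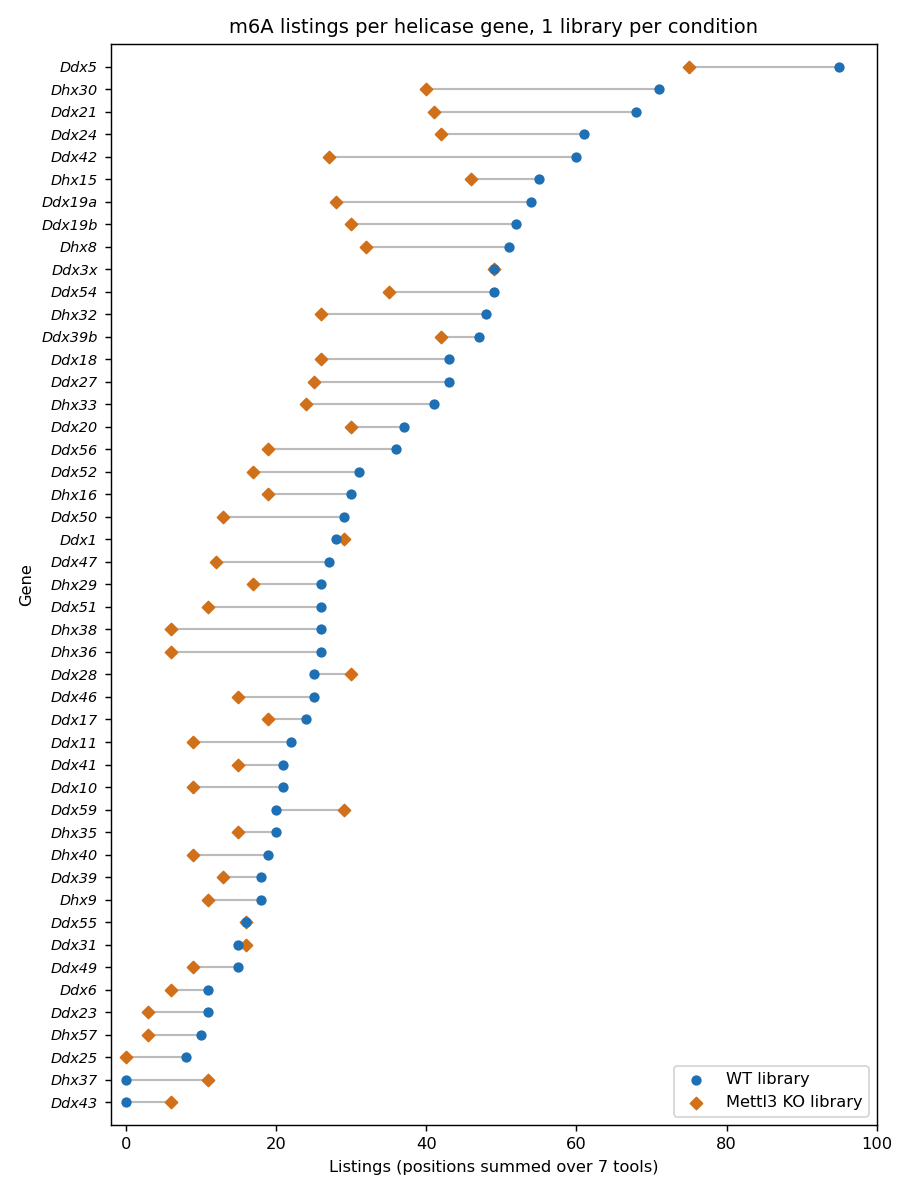
Listings of each of the 47 helicase genes with a position, summed over 7 tools, in the WT library (circles) and the Mettl3 KO library (diamonds). Ddx5 leads with 95 in WT and 75 in KO, Dhx36 and Dhx38 go from 26 to 6, and Ddx59 has more in KO (29) than in WT (20).

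Splicing helicases formed a group of 13 genes, all with positions, which had 484 listings in WT and 323 in KO (ratio 0.667, 0.578 to 0.770). Ddx5 had the most of any helicase, 95 in WT and 75 in KO. Its Nanom6A count was 37 in WT and 43 in KO, whereas its m6Anet count was 19 and 4, so that the direction depended on the tool. Dhx15, Dhx8, Dhx16 and Dhx38 encode ATPases that remodel the spliceosome. Dhx15 had 55 and 46 listings, and Dhx8 had 51 and 32. Dhx38 had 26 and 6, a ratio of 0.231, with 13 and 4 from Tombo. Ddx42, which associates with the U2 snRNP, had 60 and 27, and there Nanom6A went from 13 to 2 while Tombo stayed at 15 and 14. Ddx23, a tri-snRNP component, had 11 and 3. The genes past the 2-fold mark in this group were Ddx42, Dhx38, Dhx40 and Ddx23.

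Helicases of ribosome assembly were the largest group, with 15 genes, all with positions, and 492 listings in WT and 313 in KO (ratio 0.636, 0.550 to 0.735). Ddx21, a nucleolar helicase of rRNA transcription and processing, had 68 and 41 listings, of which m6Anet gave 22 and 8. Ddx24 had 61 and 42, Ddx54 had 49 and 35, and Ddx18 had 43 and 26. Ddx47 had 27 and 12, with 5 and 0 from Nanom6A, and with Ddx51 and Ddx10 it made up the 3 genes past the 2-fold mark. Dhx37 had no WT listing and 11 in KO, from Tombo, MINES and Epinano.

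Helicases of mRNA export, translation and decay numbered 9, all with positions, with 262 listings in WT and 160 in KO (ratio 0.611, 0.498 to 0.746). Ddx3x stood at 49 in both libraries, although m6Anet gave 11 and 6 and Nanom6A 19 and 27. Reads of its Y-linked paralog, left out by the rule, may be assigned to it. Dhx36, which unwinds G-quadruplexes, was the only gene of the group past the 2-fold mark among those with at least 10 WT listings, with 26 and 6 listings, a ratio of 0.231. Ddx6, a decay factor of P-bodies, had 11 and 6. Ddx25, a testis helicase with too few WT listings to be counted, had 8 and 0, all from Tombo.

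The remaining groups were small. The mitochondrial helicases Dhx30 and Ddx28, which take part in mitochondrial ribosome assembly, had 71 and 40, and 25 and 30 listings. The 3 sensors of viral RNA, Ddx58, Dhx58 and Ddx60, had no position in either library. Of the germ cell helicases Ddx4 had none, and Ddx43 had 0 in WT and 6 in KO. Of the 8 other genes 7 had positions, with 194 listings in WT and 139 in KO (ratio 0.716, 0.572 to 0.895), and Ddx50, Ddx11 and Dhx57 were past the 2-fold mark. Ddx1, a subunit of the tRNA ligase complex, had 28 and 29, and Ddx59 had 20 and 29. Genes with at least 5 KO listings and no WT listing were 2 of 47 (4.26%, against 5.6% of all protein-coding genes), and the reverse held for Ddx25 alone (2.13%, against 5.49%). Ddx25, Dhx37, Ddx43, Ddx59 and Ddx1 were chosen after their values were seen.

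The 36 Ddx genes had a ratio of 0.686 (0.624 to 0.754) and the 16 Dhx genes 0.601 (0.514 to 0.701), and these intervals overlap. For comparison, 19 helicases of related families that the symbol rule leaves out, among them the Eif4a genes, Upf1 and Snrnp200, had 510 listings in WT and 383 in KO, a ratio of 0.751 (0.656 to 0.859). Among them 4 of 16 genes were past the 2-fold mark, Eif4a3, Helz, Skiv2l and Upf1, where the share was 25% of the members and 31.6% of all protein-coding genes. Comparison positions were found in 4 of the 19. That share was 7.15% of all protein-coding genes, and 16.9% of those with a WT or comparison position.

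Which tools listed a gene at all varied between members. Of the 45 genes that had a WT position Tombo listed 45 (100%, against 94.2% of all such protein-coding genes) and Epinano 43 (95.6%, against 92.1%). Nanom6A and m6Anet listed 28 each (62.2%, against 45.9% and 47.5%), xPore 23 (51.1%, against 29.6%) and ELIGOS 22 (48.9%, against 29.3%). In 14 genes, among them Dhx33, Ddx51, Dhx29, Ddx46, Dhx9 and Ddx6, there was no WT listing from Nanom6A, m6Anet, ELIGOS or xPore (31.1%, against 45% of all such genes). None of the 14 was in a comparison list, a share that was not counted over all protein-coding genes. The WT and KO listings of the 14 were 269 and 175, of which Epinano gave 83 and 16. Dhx30 had the second highest WT count, yet all of its listings came from Tombo (28 in WT, 22 in KO), Epinano (24 and 5), Nanom6A (10 and 7) and MINES (9 and 6). In 6 genes (13.3%, against 8.94%) m6Anet listed 27 positions in KO and none in WT, among them 9 in Ddx28 and 8 in Ddx59. The part of read depth in these patterns was not tested.

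Some positions had broad WT support and no KO call. Among the 122 member positions that at least 3 tools listed in WT, 24 in 18 genes had no KO call from any tool (19.7%, against 26.5% over all protein-coding genes). With at least 4 WT tools there were 13 of 51 (25.5%, against 27.2%). Of the 24, 16 lay within 200 nt of a stop codon (66.7%, interval 46.7 to 82.0) and 21 in the last exon (87.5%, 69.0 to 95.7). Over all protein-coding genes the same shares were 38.7% and 80.4%. The 5-mer was GGACT at 9 (37.5%, against 35.7%), AGACT at 6 (25%, against 18.8%) and GGACA at 5 (20.8%, against 21.9%). The ones below had the widest WT support among those outside the comparison lists, and were chosen after their values were seen. Capitals mark the called 5-mer.
Dhx36 -98, chr3:62470652-62470672, minus strand: aagtcaagAGACTgtgcagta
Ddx19a +145, chr8:110975876-110975896, minus strand: ttacgtttGGACTtgacaaat
Dhx40 +10, chr11:86770104-86770124, minus strand: taagcagtGGACTatccaatt
Ddx47 +15, chr6:135023413-135023433, plus strand: ctttagaaAGACTtctgctcg
Ddx20 +107, chr3:105678435-105678455, minus strand: acttgagaGGACTtgaggctt
Dhx36 -98 and Ddx19a +145 each had 6 WT tools, and the other 3 had 5 each. Ddx47 and Ddx20 thus each held, in the same 3′ UTR, a site without KO calls and a better-supported site with 3 KO tools, at +138 in Ddx47 and +127 in Ddx20. In Ddx56 the 2 kinds of site were almost adjacent. The GGACA at +101 had 6 WT and 2 KO tools and a DiffErr call, while the AGACT at +105, inside the same printed window, had 4 WT tools and no KO tool. Of the 24, 17 lay within 400 nt of the stop codon (70.8%, against 57.7% over all protein-coding genes). The farthest upstream was Dhx30 -2417, a GGACT in the coding exon 12 of 23, an exon of 837 nt, which was listed in WT by Tombo, MINES, Nanom6A and Epinano and in KO by none.

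The opposite pattern was rare. Only 1 member position was listed in both libraries by the same tools, at least 4 of them (0.104% of the WT positions, against 0.31% over all protein-coding genes). With the tools free to differ between the libraries there were 2 (0.208%, against 0.347%), and the added one was Ddx21 +19, with 5 WT and 4 KO tools of which Tombo and m6Anet were shared. The position with shared tools was Dhx15 -2065 in coding exon 2 of 14, chr5:52184644-52184664 on the minus strand, shown because most tools called it in both libraries.
Dhx15 -2065: gacacacaGGACAcacatcac
It had 5 tools in WT, 4 in KO, all among the 5, and no comparison call.

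Positions that appeared in KO and in no WT or comparison list numbered 178 of 1140 (15.6%, against 19.5% over all protein-coding genes), in 44 genes, and of them 10 had at least 2 KO tools. GGACT made up 2.25% of them (0.877 to 5.63) and 9.66% (6.12 to 14.9) lay within 200 nt of a stop codon. Over all protein-coding genes these shares were 7.46% and 15.1%. Among the 962 WT positions of the members the shares were 10.7% (8.91 to 12.8) and 19.98% (17.6 to 22.6). Among all 790 KO positions of the members they were 8.61% (6.85 to 10.8) and 17.2% (14.7 to 19.96). These intervals overlap those of WT. Most of the 178 positions had 1 tool. The members' WT or comparison positions of 1 tool had 5.68% (4.11 to 7.80) and 16.1% (13.4 to 19.3), and these intervals overlap those of the 178. The contrast of the 178 with all WT positions thus does not hold the number of tools equal.

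The paralogs Ddx19a and Ddx19b, neighbours on chromosome 8, carried the same sequence at the supported sites and differed in their calls. Their coding sequences were identical at 93.6% of aligned bases and the first 200 nt after the stop codon at 94.3%. In WT and KO Ddx19a had 54 and 28 listings and Ddx19b 52 and 30. The 3 sites at +97, +115 and +145 of the 3′ UTR had identical 21-base windows in both genes. The windows at +97 and +145 of Ddx19a are printed above, and the pair at +115 and the pair at -200, a coding site where the windows are not identical, read as follows, with the called 5-mer in capitals.
Ddx19a +115, chr8:110975906-110975926, minus strand: ctgagtagAGACTacctacct
Ddx19b +115, chr8:111008127-111008147, minus strand: ctgagtagAGACTacctacct
Ddx19a -200, chr8:110976559-110976579, minus strand: ctccctgtGGACAaggatggg
Ddx19b -200, chr8:111008780-111008800, minus strand: ctccctgtGGACAaggacggg
In Ddx19a the 3 sites had 5, 4 and 6 WT tools, no KO tool, and comparison calls at +97 and +115. In Ddx19b they had 2, 2 and 4 WT tools, no KO tool and no comparison call. At -200 both genes were listed in both libraries, Ddx19a by 4 WT and 2 KO tools and Ddx19b by 3 and 2. Over the coding part and these 200 nt, 27 RRACH sites aligned with an identical 5-mer, of which 19 were in a WT or comparison list in Ddx19a, 17 in Ddx19b and 14 in both. The tools divided between the genes: m6Anet listed 12 WT positions in Ddx19a and 0 in Ddx19b, Nanom6A 10 and 1, and Epinano 1 and 21. In Ddx19b m6Anet, ELIGOS and xPore listed no position in either library. In the paper m6Anet required more reads per site than the other tools. The part of read depth in the calls of the 2 genes was not tested. Their 3′ UTRs differ in length, 1033 nt in Ddx19a and 5062 nt in Ddx19b, and were not compared beyond the first 200 nt. Within the compared part reads may be assigned to either gene, so the gene to which a call there belongs is uncertain.

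**Figure D4:**
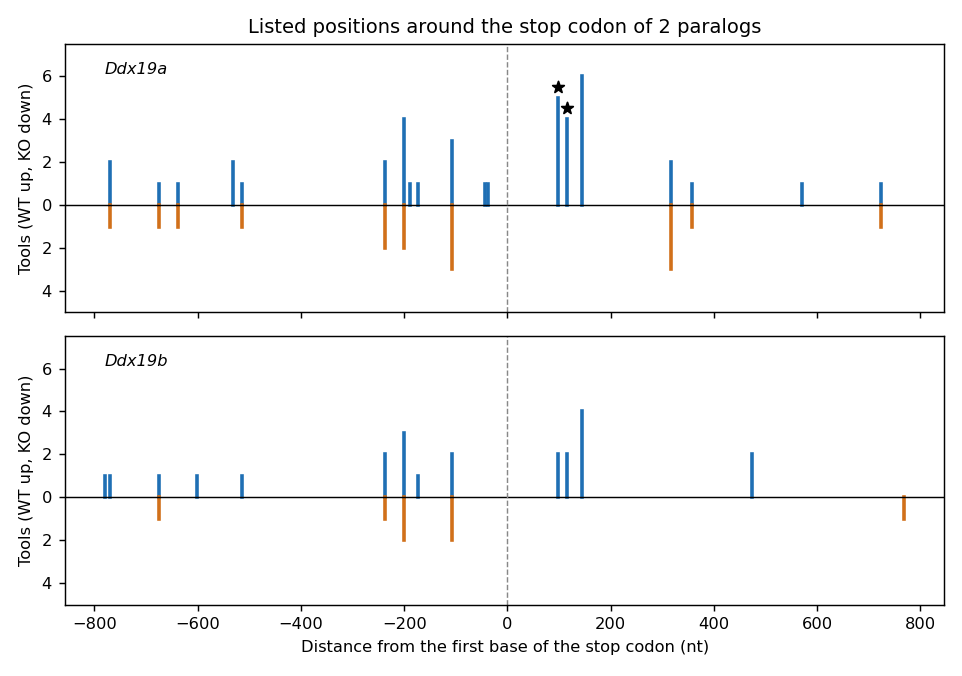
Listed positions within 800 nt of the stop codon (dashed line) in Ddx19a (top) and Ddx19b (bottom), with distance in nt on the x axis. Bars upward count WT tools, bars downward KO tools, and a star marks a comparison call. At +97, +115 and +145 both genes have WT bars and no KO bar.

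The other paralog pairs shared fewer sites of identical 5-mer, which are the sites counted here, in WT or comparison lists. Ddx21 and Ddx50, identical at 74.0% of aligned coding bases, shared 11 such aligned RRACH sites, of which 7 were listed in Ddx21, 5 in Ddx50 and 5 in both. Ddx39 and Ddx39b, identical at 81.5%, shared 8, of which 6 and 8 were listed, 6 in both. Ddx5 and Ddx17, identical at 73.4%, shared 4, of which 3 were listed in Ddx5 and 0 in Ddx17.

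In Ddx5 a second group of positions lay outside the coding transcripts. Of its 59 positions 11 fell in intron 11 of the main coding transcript (chr11:106782694-106783958, 1265 nt), and all were listed on a transcript annotated for nonsense-mediated decay that keeps this sequence. They had 23 WT and 9 KO listings and no comparison call. m6Anet listed 8 of them in WT and 0 in KO, and Tombo 7 and 7. Nanom6A, which gave most of the Ddx5 listings elsewhere, listed none here. The pair with the most WT tools is shown because its GGACT 5-mers lie in sequence that the coding transcripts splice out, and it was chosen after the values were seen. Capitals again mark the called 5-mer.
Ddx5 intron 11, chr11:106782998-106783018, minus strand: ctgtaaggGGACTgtcaattt
Ddx5 intron 11, chr11:106783771-106783791, minus strand: gggatggaGGACTagtgatcg
The former had 5 WT and 2 KO tools and the latter 4 WT and 2 KO tools.

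Place and sequence differed between positions listed by few and by many tools. Among WT or comparison positions of 1 tool, 16.1% (13.4 to 19.3) lay within 200 nt of a stop codon, and the share was 19.6% with 2 tools, 30.3% with 3, 35% with 4 and 61.8% (45.04 to 76.1) with 5 or more. Over all protein-coding genes these shares were 19.0%, 24.6%, 31.2%, 40.6% and 49.7%. GGACT made up 5.68% (4.11 to 7.80) of the members' positions with 1 tool, 14.5% with 2, 11.6% with 3, 57.1% with 4 and 45.7% (30.5 to 61.8) with 5 or more, against 7.09%, 16.2%, 23.1%, 27.9% and 44.8% over all protein-coding genes. The pattern was thus not limited to the helicases. For the 5-mer it is partly built in, because MINES makes calls at only 4 of the RRACH 5-mers, of which GGACT is one and which held all 130 member positions in its lists, so that positions with any other 5-mer can be listed by 1 tool fewer. The members' intervals of the first and the last class do not overlap for either feature. Of all RRACH sites on the members' most listed coding transcripts, 12.4% lay within 200 nt of the stop codon and 6.68% were GGACT, so the share of GGACT among single-tool positions was near that of all RRACH sites, while their share near the stop codon was above it. Compared with all protein-coding genes, the members' WT or comparison positions were more often coding (68.3% against 56.4%) and less often in the last exon (39.9% against 52.2%). Of the RRACH sites on the same member transcripts 66.6% were coding and 37.2% in the last exon. Internal exons of at least 400 nt held 9.09% (7.42 to 11.1) of the members' positions, against 5.22% over all protein-coding genes. In the KO lists they held 8.45% (6.70 to 10.6), against 4.44%, so the difference was also present without METTL3. Their share of the RRACH sites on the member transcripts was not counted.

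**Figure D5:**
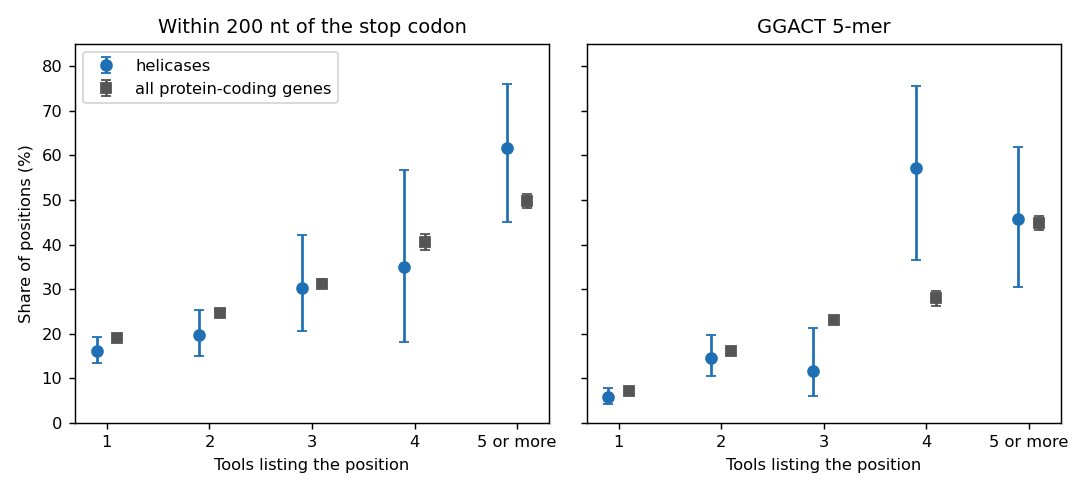
Share of WT or comparison positions that lie within 200 nt of the stop codon (left) or have the 5-mer GGACT (right), in percent, by the number of tools that listed the position, for helicases (circles) and all protein-coding genes (squares), with 95% Wilson intervals. Both shares are higher with 5 or more tools than with 1, at 61.8% against 16.1% and 45.7% against 5.68% for the helicases.

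The density of calls along the transcripts also varied. In the 45 genes with a WT or comparison position the median share of a transcript's RRACH sites that were listed was 36.1%. It ran from 8.25% in Ddx25 to 87.5% in Ddx39b, with 80.5% in Dhx15 and 75.4% in Ddx5. The genes at the top of this range include those with the most Nanom6A listings, 37 in Ddx5, 28 in Dhx15 and 24 in Ddx39b.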

How the data were processed

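The authors base-called the ONT DRS reads of the WT and KO libraries, aligned them to a mouse reference transcriptome, ran 10 m6A tools and converted the calls to genomic coordinates (GRCm38). The deposited files used here are the called positions of each tool, as BED lists with a transcript or, for Nanom6A, a gene symbol in column 4. The lists hold no counts, coverage, score or rate, and no column of another sample (0). Unique positions by chromosome, base and strand were intersected on the same strand with exons of the GENCODE annotation (release M21); 99.96% of the list lines that name a transcript name one found there. MINES takes Tombo output and Nanom6A uses Tombo's re-squiggle, while m6Anet, xPore and Nanocompore share Nanopolish events, so tools are not independent. Shares have Wilson intervals and KO to WT ratios exact binomial (Clopper-Pearson) intervals, checked on simulated data. Genes with at least 10 WT listings were counted as lower or higher past a 2-fold ratio. Distances refer to the coding transcript listed most often. Sequence was read from the GRCm38 reference (pysam 0.24.0, samtools 1.23.1, Python 3.11.15).

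Named were every gene with a comparison position, the 10 genes with the most WT listings, those called higher, the 5 lowest ratios, and positions in all 3 comparison lists, in at least 7 of 10 tools, or in both libraries by the same tools, at least 4 of them. The members, lists and rules were chosen with earlier results of these data known. The alternatives tried were the assignment by column 4, RRACH only, leaving out Tombo, xPore, Ddx5 or shared exons, counting lines, matching within 5 bases, other windows and other thresholds. Of the 1140 member positions 6 lay in exons of another gene.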

Additional observations from a re-analysis of the deposited data

How the results depend on the processing

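No paired analysis was possible because each condition had 1 library, which also leaves no replicate to leave out. Of 51 alternative values 40 stayed within the counting interval of the reported value, or within 1.5 times a reported count. Without Tombo the KO to WT ratio was 0.550 in place of 0.662, and the share of repeated WT listings 36.7% in place of 47.6%. The number of genes past the 2-fold mark was 21 of 34 in place of 11 of 44. That share was above the value over all protein-coding genes without Tombo (61.8% against 54.5%) and below it with Tombo (25% against 31.6%). Positions within 200 nt of a stop codon made up 23.0% without Tombo in place of 19.98%. Counting every line gave 1724 WT or comparison lines in place of 962 unique positions. In that count 1 base counts again for each further tool and each further transcript that lists it. The other shifts follow from the definitions. The share near the stop codon was 11.1% within 100 nt and 30.1% within 400 nt. In place of the 7 positions in at least 2 comparison lists there were 22 in at least 1 and 2 in all 3. In place of the 24 positions with at least 3 WT tools and no KO tool there were 89 with at least 2 and 13 with at least 4. Read depth is not in the lists, so a missing call cannot be weighed by coverage.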
